A study of Rattus norvegicus with 88 samples.

Results

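Rat batch 3 was compared with rat batch 2 in heterogeneous stock (HS) rats, using RNA of the orbitofrontal cortex, in the 34 of 80 libraries whose columns stand first in the deposited expression table. The column names of that table ascend in stretches, and the first and second stretches hold 21 and 13 columns. These columns are 15 rats of batch 2 and 19 rats of batch 3. They were chosen by column place and batch label, with earlier results of these data known. HS rats are outbred and go back to a set of inbred founders, so each rat carries its own mix of founder alleles. All rats were untreated, were housed in groups and gave 1 library each from polyadenylated RNA of the same dissected region, with tissue of both hemispheres combined. The age of each rat and the meaning of a rat batch are not given in the labels used here. Batch 2 had 11 males and 4 females, and batch 3 had 8 males and 11 females. Another 3 rats of batch 2 and 3 of batch 3 were marked as removed in the labels and were not analysed here. Rats are numbered within their batch, and the numbers pair no rats.

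The orbitofrontal cortex is the ventral part of the frontal lobe, and it is known for linking cues and actions to the value of their outcomes. Its tissue holds excitatory projection neurons, inhibitory interneurons and glia, with vessels and blood, and a dissection can take in neighbouring white matter or striatum. A level measured in such bulk tissue therefore depends on both the mix of cells and the RNA of each cell, and these cannot be told apart here. In an outbred stock, groups of rats also differ by which founder alleles they happen to carry, so some genes differ between any 2 sets of rats. The expression table gives genes by Ensembl identifiers only, and 0 of its 17123 identifiers matched the reference table of gene names used here. Names that the study gives elsewhere for some of the identifiers were not used. By that choice, marker genes of the region and lists of neuronal, glial, vascular and stress genes were not applied, the labelled tissue was not checked against markers, and no sequence was tied to a gene.

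Batch and stretch overlapped strongly. Of the 15 rats of batch 2, 14 stood in stretch 1 and 1 female, rat 2, stood in stretch 2. Batch 3 had 7 rats in stretch 1 (2 males and 5 females) and 12 rats in stretch 2 (6 males and 6 females). What a stretch stands for is not stated. It entered the linear model of the batches together with sex, while counts of groups that do not overlap and of low or high genes used neither. The reads behind each library, recovered from the spacing of its low values, were 5.67M to 24.5M (M, 1000000 reads), and 335 to 1628 genes were at 0 in a library. A pair of libraries stood apart: rat 1 of batch 2, with 5.67M reads, and rat 8 of batch 3, with 1628 genes at 0. No 2 libraries were identical, and correlations between libraries lay between 0.942 and 0.982. Levels of 5 genes that separated the sexes in the 46 other libraries disagreed with the sex label of 0 of the 34. The log2 depth of batch 3 was lower by a fitted 0.05 (permutation p = 0.702, batch permuted within stretch and sex, two-sided).

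Few genes were called between the rat batches, and the differences of the called genes were mostly small. With stretch and sex in the model, 158 of 17123 genes passed a Benjamini-Hochberg adjusted p of 0.05 (limma), which is 0.923% of the genes tested. Of these, 65 (0.38%) were higher and 93 (0.543%) were lower in batch 3. The median size of their difference was 0.25 on the log2 scale, and the range was 0.11 to 1.10. A difference of at least 0.5 was seen in 22 of them and a difference of at least 1 in 1. Over the 14716 genes with a mean log2 level of at least 3, the median size was 0.09 and the median signed difference was 0.001. An unadjusted p under 0.05 was reached by 2886 of 17123 genes (limma), where a share of about 0.05 is reached if no gene differs. A gene that was not called is therefore not shown to be equal in both batches.

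The called genes were mostly well expressed. Among the 2407 genes with a mean log2 level under 3, where the median standard error (SE) of the batch difference was 0.43, none was called. From 3 to 6, 1 of 2958 genes was called, and from 6 to 9, 34 of 5577 were called. From 9 to 12, 100 of 5358 genes (1.87%) were called, with a median SE of 0.06. Above 12, 23 of 823 genes (2.79%) were called, with a median SE of 0.04. The called genes at the highest levels had small differences, with a median size of 0.18, against 0.41 between levels 6 and 9.

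**Figure D1:**
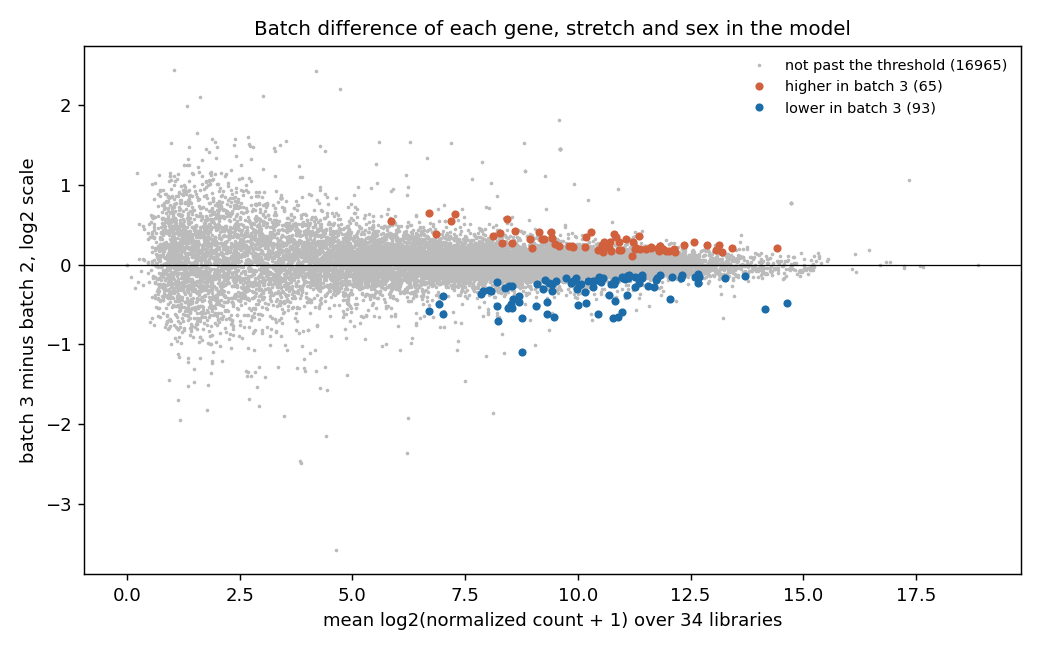
Each point is 1 of 17123 genes. The horizontal axis is the mean log2(normalized count + 1) over the 34 libraries, and the vertical axis is the difference of batch 3 minus batch 2 on the log2 scale with stretch and sex in the model. The 65 genes higher in batch 3 and the 93 lower are coloured, and the largest called difference is -1.10; larger differences at low levels are grey because their errors are larger.

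The gene with the smallest p was ENSRNOG00000018627, which was lower in batch 3. Its log2 level in batch 2 ran from 11.02 through a median of 11.26 to 11.39, and in batch 3 from 10.70 through 10.98 to 11.25. The ranges overlapped, but each of the 19 rats of batch 3 lay below the median of batch 2, and 13 of them lay below all 15 rats of batch 2. The fitted difference was -0.38 (SE 0.06, adjusted p = 0.00123, limma). In stretch 1 the means were 11.24 ± 0.10 (SD, n = 14) in batch 2 and 10.84 ± 0.11 (SD, n = 7) in batch 3. In stretch 2 the 1 rat of batch 2 was at 11.26, above the 12 rats of batch 3, whose highest value was 11.25. The gene was also called in all 34 fits that left out 1 library, with adjusted p values from 0.000176 to 0.00668.

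The largest called difference belonged to ENSRNOG00000005600, also lower in batch 3. Its log2 level was 8.44 to 10.03 with a median of 9.24 in batch 2, and 6.74 to 9.67 with a median of 8.37 in batch 3. Batch 3 was the more variable group, and 10 of its 19 rats lay below every rat of batch 2. The fitted difference was -1.10 (SE 0.25, adjusted p = 0.0309). The 2 males of batch 3 in stretch 1 had 115 and 320 normalized counts for this gene. Without rat 1 of batch 3, the male at 115, the difference was -0.905 and the adjusted p was 0.128. The call was also lost without rats 10 and 19 of batch 3 and rat 8 of batch 2 (adjusted p = 0.0579, 0.0809 and 0.062).

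ENSRNOG00000025053 was the gene higher in batch 3 with the smallest p, and it was also among the more abundant genes. Its log2 level was 12.78 to 13.12 with a mean of 12.98 ± 0.09 (SD, n = 15) in batch 2, and 12.94 to 13.39 with a mean of 13.22 ± 0.11 (SD, n = 19) in batch 3. In stretch 1 the groups did not overlap, since the lowest of the 7 rats of batch 3 was at 13.13. In stretch 2 the rat of batch 2 was at 13.05, inside the range of 12.94 to 13.39 of the 12 rats of batch 3. The fitted difference was 0.25 (SE 0.05, adjusted p = 0.0167), and the call was lost without rat 1 or rat 10 of batch 3 (adjusted p = 0.0572 and 0.052).

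ENSRNOG00000002092 had the largest called difference among genes higher in batch 3. Its log2 level was 5.70 to 7.01 with a median of 6.58 in batch 2, and 6.36 to 7.65 with a median of 6.86 in batch 3. The lowest value was that of rat 2 of batch 2, the only rat of its batch in stretch 2, and 5 of the 19 rats of batch 3 lay below the median of batch 2. The fitted difference was 0.65 (SE 0.14, adjusted p = 0.0242). In stretch 1 alone it was 0.58 (SE 0.17, adjusted p = 0.0716), so the call was lost there. It was also lost without rats 1, 10 and 19 of batch 3 and rats 2 and 8 of batch 2, with adjusted p values of 0.054 to 0.0778.

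**Figure D2:**
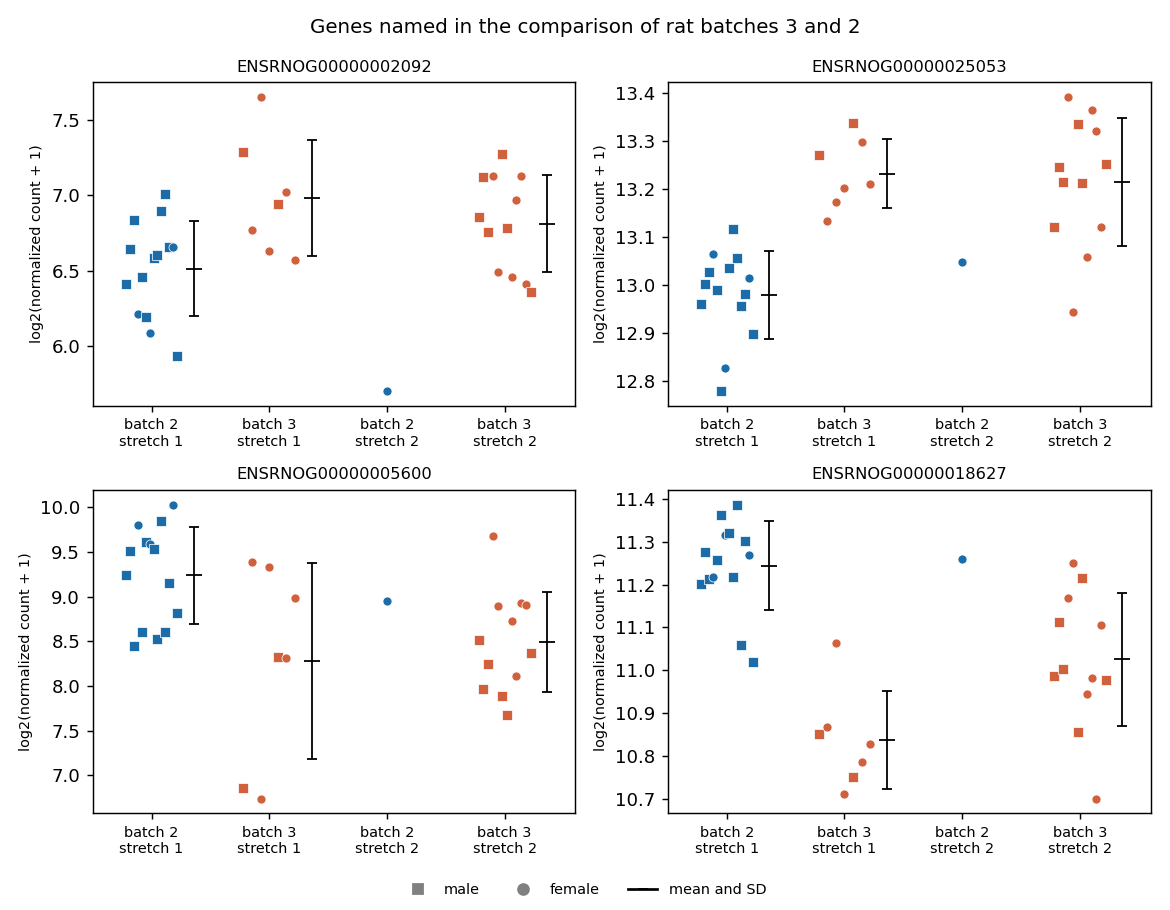
The vertical axis of each panel is the log2(normalized count + 1) of 1 gene in each of the 34 rats, by batch and stretch; squares are males, circles are females, and the bars are the mean and SD of a group of more than 1 rat. In stretch 1, ENSRNOG00000018627 averages 11.24 in batch 2 and 10.84 in batch 3, with 6 of the 7 rats of batch 3 below all of batch 2, while ENSRNOG00000005600 spreads from 6.74 to 9.39 within the 7 rats of batch 3 in stretch 1.

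The number of called genes depended on single rats, and it fell furthest without either of the 2 males of batch 3 in stretch 1. Without rat 1 of batch 3, 1 gene was called, and without rat 10, 3 genes were called. Their removal raised the design's unscaled SE of the batch difference from 0.440 to 0.469. Without rat 2 of batch 2 it was 0.501, and 424 genes were called. That rat was the only one of batch 2 in stretch 2, so the batches were then compared within stretch 1 only. This fit is thus not like the others. Fewer genes were also called without rats 19, 22 and 9 of batch 3, all females of stretch 1, at 28, 68 and 77 genes. Without rat 4 of batch 3, another female of stretch 1, 315 genes were called. In batch 2, 27 genes were called without rat 8, 98 without rat 5, and 103 without rat 3 or rat 7. Leaving out any of the 12 rats of batch 3 in stretch 2 gave 106 to 218 genes. These rats stood beside 1 rat of batch 2, so the design gave each of them little weight in the batch difference. The unscaled SE was 0.440 to 0.442 without any of them.

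The sizes of the differences moved little in these fits. The median ratio of a called gene's difference without a library to that with all 34 lay between 0.94 and 1.11, at 0.97 without rat 1 of batch 3, 0.98 without rat 10 and 1.11 without rat 2 of batch 2. All 158 genes kept their direction and an unadjusted p under 0.05 in each of the 34 fits, which share 33 libraries with the full fit and so are not independent of it. Without rat 1 of batch 3 the median adjusted p of the 158 genes was 0.095.

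**Figure D3:**
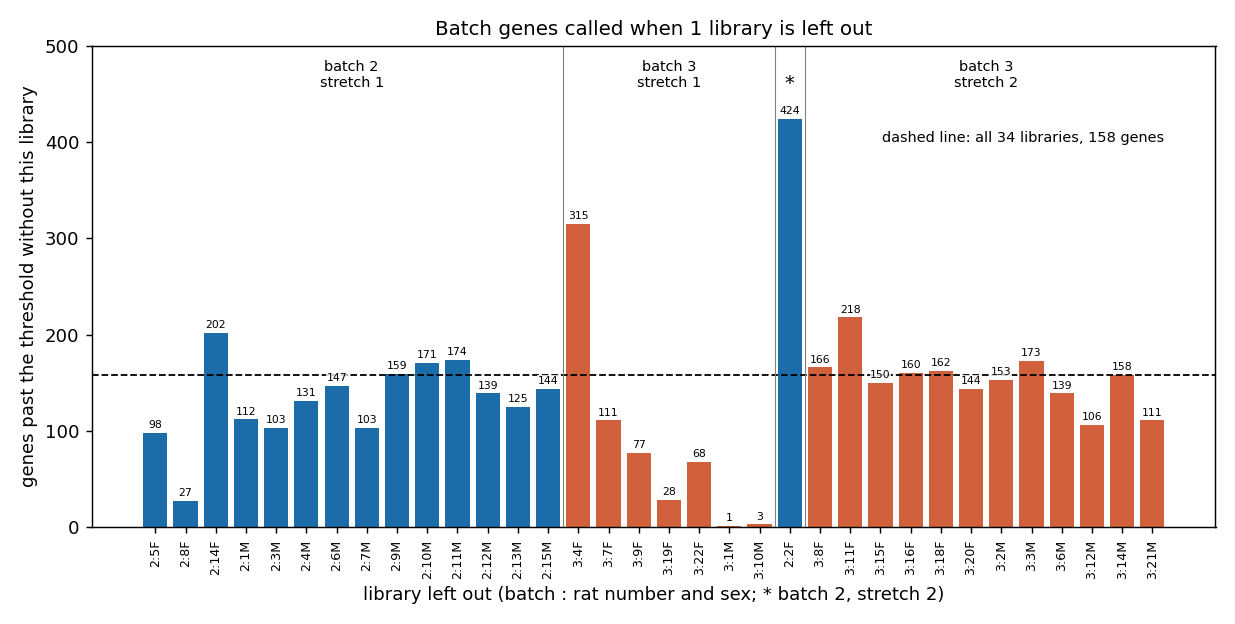
Bars give the number of genes past an adjusted p of 0.05 for batch 3 against batch 2 when the library named on the horizontal axis is left out, as batch, rat number and sex; vertical lines part the batches and stretches. The dashed line marks the 158 genes of all 34 libraries; the count is 1 without rat 1 and 3 without rat 10 of batch 3, and 424 without rat 2 of batch 2.

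Within stretch 1, where both batches had several rats, 333 genes differed (1.94%), of which 144 were higher in batch 3. This count also rested on the 2 males of batch 3, at 6 genes without rat 1 and 23 without rat 10. Of the 333, 109 were also among the 158 of the full fit. Groups of 14 and 7 rats did not overlap for 28 genes (0.164%), 14 above and 14 below, and 24 of the 28 were among the 333. Over all 34 rats, no gene had groups that did not overlap (0%).

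The genes of stretch 1 could be looked at in stretch 2, whose rats had no part in choosing them. There, the 6 females of batch 3 differed from the 1 female of batch 2 in the same direction for 145 of the 333 genes (43.5%), against 49.4% over all genes. The median difference in the direction seen in stretch 1 was -0.018, against a median size of 0.306 in stretch 1. Thus the difference of stretch 1 was not seen in the only rat of batch 2 in stretch 2. For the 28 genes without overlap in stretch 1, that rat lay on the batch 2 side of the females in 13, and nearer to the mean of batch 3 than of batch 2 in stretch 1 in 20. The 12 rats of batch 3 in stretch 2 had means nearer to batch 3 of stretch 1 for 25 of the 28. The same counts were not made over all genes, so 13, 20 and 25 of 28 cannot be set against a background.

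A mean signed level shows the same by rat. For each of the 333 genes the level was centred over the 34 rats and its sign was turned for genes lower in batch 3. The mean over genes was -0.38 to -0.06 in the 14 rats of batch 2 in stretch 1 and 0.09 to 0.34 in the 7 of batch 3, a separation that the choice of genes fixes. In stretch 2, rat 2 of batch 2 was at 0.12 and the 12 rats of batch 3 were at -0.22 to 0.26 with a median of 0.06. The rat of batch 2 stood above 9 of those 12 rats. Leaving it out of the full fit raised the called genes to 424. It is a single rat, and a spread within batch 2 in stretch 2 could not be measured.

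**Figure D4:**
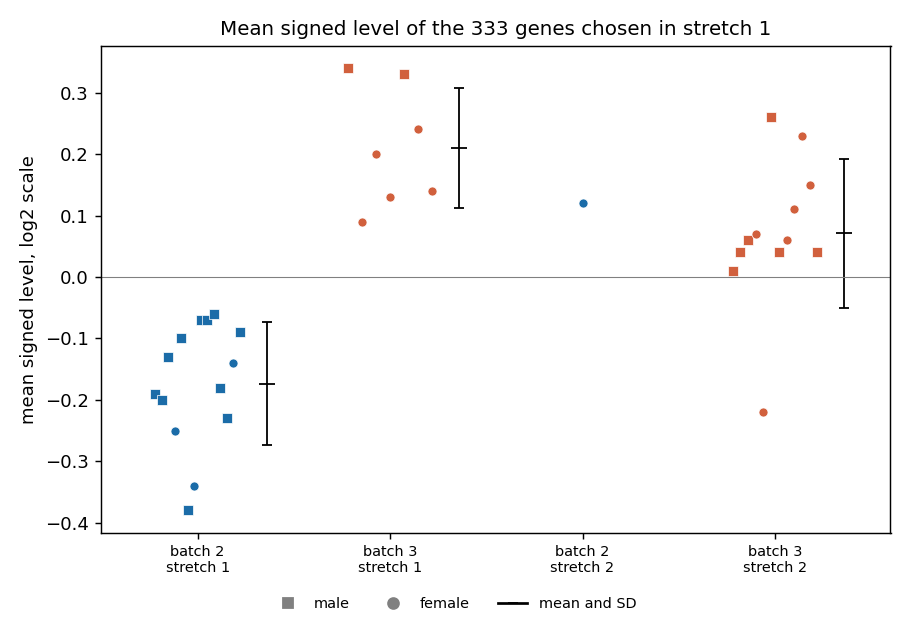
The vertical axis is the mean signed level, on the log2 scale, of the 333 genes that differed between the batches in stretch 1, by batch and stretch; squares are males, circles are females, and the bars are mean and SD. The stretch 1 groups part by choice of genes, while in stretch 2 the rat of batch 2 at 0.12 lies inside the range of batch 3, -0.22 to 0.26.

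Males and females gave batch differences of mostly the same direction. A fit to males called 8 genes and a fit to females called 0, where 2445 and 816 of 17123 genes had an unadjusted p under 0.05. Of the 2445 genes of the males, 1997 (81.7% of those with a sign) had the same direction in females, against 63.3% of all genes. Of the 816 genes of the females, 653 (80%) had the same direction in males, against 63.3% of all genes. Where no gene differs, a share of about 0.05 of genes reaches an unadjusted p under 0.05, so the 816 are not a list of called genes. The median difference of the 2445 genes was 0.087 in females in the direction seen in males, against a median size of 0.321 in males. The size in males is raised by the choice of genes there, and genes that vary together are not separate evidence. The interaction of batch and sex passed the threshold for no gene (0%, limma), and 517 of 17123 genes had an unadjusted p under 0.05. The 4 females of batch 2 and the 2 males of batch 3 in stretch 1 limit this comparison. No male of batch 2 stood in stretch 2, so the male fit, with its stretch term, set 11 males of batch 2 against those 2.

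In the model of all 34 rats, more genes were called for the stretch than for the batch. Between stretches 2 and 1, 1156 genes (6.75%) differed, 541 higher and 615 lower in stretch 2, with a median size of 0.22. Without rat 2 of batch 2, the counts were 669 for the stretch and 424 for the batch. Within batch 3 alone, 326 genes differed between the stretches (1.9%), close to the 333 that differed between the batches within stretch 1. Measures of the libraries also moved with the stretch. Mean depth was 17.4M in stretch 1 and 14.5M in stretch 2, genes at 0 averaged 548 and 756, and the 10 highest genes held 9.31% and 11.5% of the counts. With a depth term, 1042 genes were called for the stretch, and the part of the other measures was not tested. Of the 326 genes of batch 3, the rat of batch 2 in stretch 2 differed from the 3 females of batch 2 in stretch 1 in the same direction for 291 (89.3%), against 58.4% over all genes. The median difference in that direction was 0.212, against 0.273 in batch 3. Stretch 2 is 1 rat of batch 2 here, so these shares describe that rat against 3 others, and genes that vary together in it are not separate evidence. Leaving out rat 10 or rat 19 of batch 3 lowered the count of the full model to 672 and 735.

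Among called genes with a mean log2 level of at least 3, the 2 with the largest stretch difference in each direction were listed at 0 in at least 1 rat. For ENSRNOG00000050535 and ENSRNOG00000046272, no rat lay above 3 and below 50 normalized counts. ENSRNOG00000050535 was above 15 normalized counts in 18 of 21 rats of stretch 1. In stretch 2 it was listed at 0 in 11 of 12 rats of batch 3, while the rat of batch 2 had a log2 level of 8.47. Its fitted difference was -5.54 (SE 1.20, adjusted p = 0.00472). ENSRNOG00000046272 went the other way: it was above 15 normalized counts in 8 of 21 rats of stretch 1, in 11 of 12 rats of batch 3 in stretch 2 and in the rat of batch 2 there. Its fitted difference was 5.45 (SE 1.32, adjusted p = 0.00989), and without rat 2 of batch 2 the adjusted p was 0.0508.

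ENSRNOG00000054945 had log2 levels of 0.00 to 7.21 with a median of 3.58 in stretch 1 and of 5.04 to 11.44 with a median of 8.14 in stretch 2. Its fitted difference was 4.03 (SE 0.70, adjusted p = 0.000621). In the rat of batch 2 in stretch 2 it was at 63 normalized counts, in the lower part of that range. Its highest levels were those of rats 18, 21 and 6 of batch 3, the libraries in which the 10 highest genes held the largest shares of the counts (17.5, 15.9 and 14.5%). ENSRNOG00000025731 was present in each of the 21 rats of stretch 1, at 4.81 to 6.75, and was listed at 0 in 4 of the 12 rats of batch 3 in stretch 2, all males. Its fitted difference was -2.29 (SE 0.60, adjusted p = 0.0178), and within batch 3 alone its adjusted p was 0.124. None of these 4 genes passed the threshold for batch, with adjusted p values of 0.748, 0.902, 0.372 and 0.731 in the order given.

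**Figure D5:**
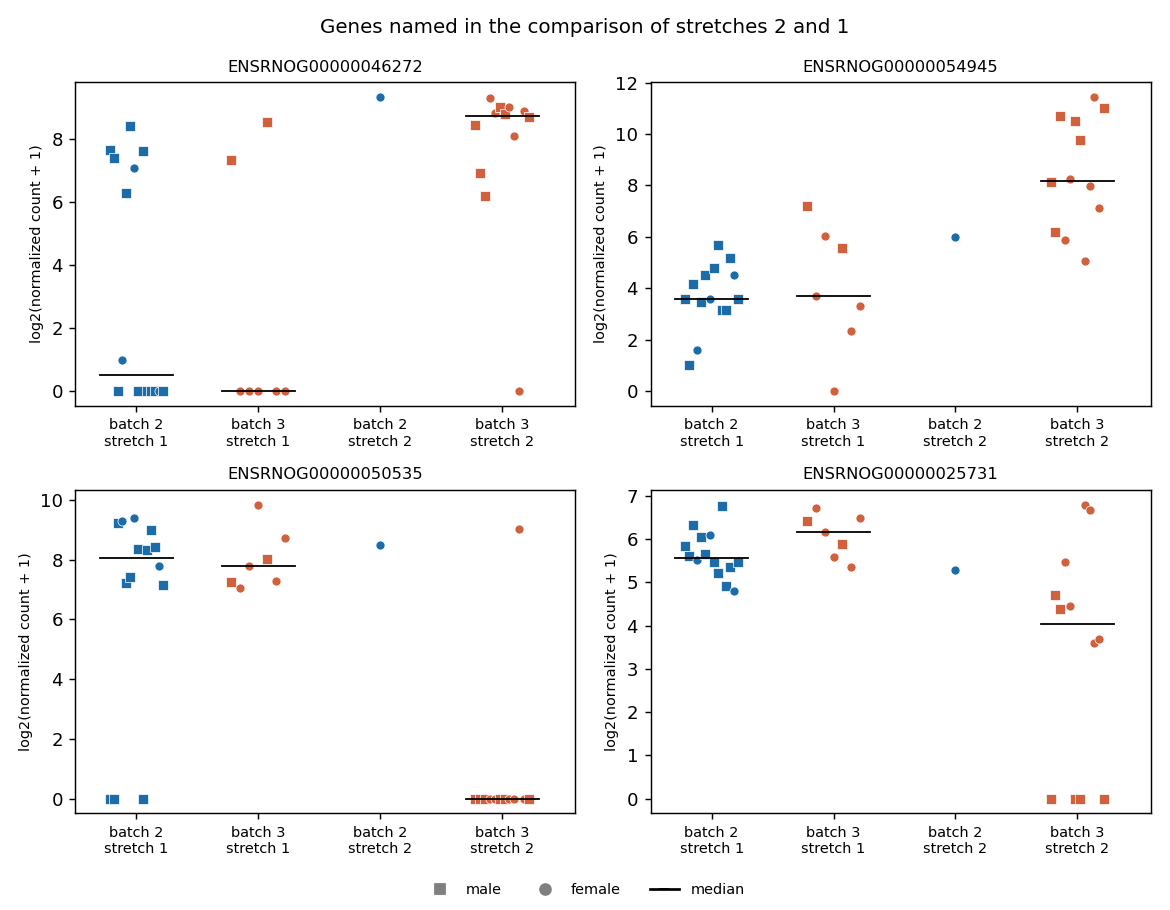
The vertical axis of each panel is the log2(normalized count + 1) of 1 gene in each of the 34 rats, by batch and stretch; squares are males, circles are females and the horizontal bar is the median of a group of more than 1 rat. ENSRNOG00000050535 is at 0 in 11 of 12 rats of batch 3 in stretch 2, and ENSRNOG00000025731 is at 0 in 4 of them.

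A separate count was made of genes that were low in some rats and high in others. With at least 5 rats at 3 or fewer and at least 5 at 50 or more normalized counts, 69 genes qualified, and rats above 15 were counted as high. One gene of 69 (1.45%) passed an adjusted p of 0.05 between the batches (Fisher's exact test, two-sided, adjusted over the 69 genes, with no term for stretch or sex), and 4 had an unadjusted p under 0.05. The gene that passed had qualified only through the batch in which it was high. The share of high rats was greater in batch 3 for 31 genes and smaller for 38, and the median size of the difference was 15.4 percentage points.

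The called gene was ENSRNOG00000025059, above 15 in 9 of 15 rats of batch 2 and in 0 of 19 rats of batch 3 (adjusted p = 0.00658, Fisher's exact test). It qualified only through batch 2, which held all 5 of its rats at 50 or more counts, so its call is not separate from that choice. Its normalized counts were 2 to 116 with a median of 18 in batch 2 and 0 to 14 with a median of 5 in batch 3. These were graded low counts and not levels of 2 kinds, since 23 of 34 rats lay above 3 and below 50, with rats of batch 2 at 16 and 18 just over the limit and rats of batch 3 at 14 just under it. The 9 rats above 15 were in stretch 1, and the rat of batch 2 in stretch 2 had 11 counts. In the linear model its batch difference was -1.90 (SE 0.55, adjusted p = 0.0803). ENSRNOG00000057696 was next among genes high in fewer rats of batch 3, at 14 of 15 rats of batch 2 and 8 of 19 of batch 3 (exact p = 0.00314, adjusted p = 0.108).

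In the other direction, ENSRNOG00000007219 was listed at 0 in each of the 15 rats of batch 2 and above 15 in 5 of 19 rats of batch 3, at up to 2838 normalized counts (exact p = 0.0526, adjusted p = 0.451). It qualified only through batch 3, which held all 5 of its rats at 50 or more counts, so its p is not separate from that choice. All 5 were in stretch 2, and the 7 rats of batch 3 in stretch 1 were listed at 0, like batch 2. ENSRNOG00000050374 was high in 10 of 15 rats of batch 2 and 18 of 19 of batch 3 (exact p = 0.0663). Its medians over all rats were 382 normalized counts in batch 2 and 423 in batch 3.

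Among principal components 1 to 5 of the 34 libraries, batch accounted for at most 9.83% beyond stretch and sex in the main setting. Each share is of the total variance of a component, not of what stretch and sex left. Components 1 to 5 held 7.79, 6.67, 6.22, 5.7 and 4.77% of the variance. Beyond stretch and sex, batch accounted for 9.37% of component 3 (adjusted permutation p = 0.0008) and for 9.83% of component 2 (adjusted permutation p = 0.11). Component 1 was led by rat 8 of batch 3, whose score was 102.2, where batch accounted for 0.219%. Components were also computed anew without that library and rat 1 of batch 2, so their numbers need not name the same components. Batch then accounted for 0.309% of component 3 and for 26.2% of component 2 (adjusted permutation p = 0.837 and 0.0084).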

How the data were processed

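Libraries of single-end reads were made from the orbitofrontal cortex, 1 per rat. According to the study's methods and processing notes, the authors trimmed reads with cutadapt, estimated gene counts with RSEM against the Ensembl rat transcriptome (Rnor_6.0 is named in the notes), scaled them to the upper quartile with DESeq2, dropped weakly detected genes, added 1 and took log2. The deposited values are therefore on a log2 scale, with no counts beside them. Each column matched 1 sample and 0 were left without one. Depth was recovered from the spacing of normalized counts up to 300. It counts reads of the listed genes only.

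Levels were fitted with limma 3.58.1 in R 4.3.3 (moderated, with a mean trend) on rat batch, stretch and sex, with Benjamini-Hochberg adjustment over 17123 genes and a threshold of 0.05. Differences are batch 3 minus batch 2 and stretch 2 minus stretch 1 and, at low levels, are understated by the added 1. Components and depth used 100000 permutations of batch within stretch and sex. Low or high genes used Fisher's exact test. The limma fits, the depth recovery, the permutation and the exact test were checked on simulated data. Identifiers are named by rule: in each direction, for batch the largest difference and the smallest p among called genes with a mean of at least 3, for stretch the 2 largest, and for low or high genes the 2 with the smallest p. The libraries and lists were chosen with earlier results of these data known. Alternatives covered terms, libraries, the added constant (10), a level filter, scaling, weights and voom on recovered reads. Terms for cell composition and medians of gene lists were not run, since names were taken only from the expression table and the reference table, where 0 identifiers matched.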

Additional observations from a re-analysis of the deposited data

Results flagged for a closer look

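In groups of 4 to 10 libraries, depth, genes at 0, the share of counts in the 10 highest genes and the levels of the named genes were searched for a rat far from the others. Of 33 groups, 1 held such a rat, and chance alone gives about 1 in 20. Among the 7 rats of batch 3 in stretch 1, rat 10 had 724 genes at 0, and the next highest rat had 507. This male is 1 of the 2 whose removal left few called genes (3 without it). The part of its genes at 0 in that change was not tested.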

How the results depend on the processing

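No paired analysis was possible because the numbers of the rats only name them, in order of accession. With all 34 libraries the batch comparison called 158 genes. It called 1255 without the stretch term, 538 with array weights, 424 without the rat of batch 2 in stretch 2, 333 in stretch 1 alone, 257 with all 80 libraries in the model, 8 in males and 0 in females. It called 135 to 191 under the other 7 alternatives, and the share higher in batch 3 was 51.4% with all 80 libraries against 41.1%. Leaving out 1 library gave 1 to 424 genes. Chosen after seeing the data, stretch 1 alone gave 264 genes without both libraries that stand apart, 6 without male 1 of batch 3 and 23 without male 10. The stretch comparison called 1994 genes without the batch term and 326 in batch 3 alone, against 1156. Leaving out 1 library gave 669 to 1610. The interaction called 0 genes under each of 5 alternatives. None of the 8 genes named for batch or stretch changed direction under the alternatives run for it. Of the named batch genes, ENSRNOG00000018627 was lost in males and in females (adjusted p = 0.0662 and 0.984) and was called in the other 13 of 15 alternatives. The call of ENSRNOG00000005600 was also lost with no sex term (adjusted p = 0.0927), and it was called in 12 of 15; ENSRNOG00000025053 was called in 13 and ENSRNOG00000002092 in 10. Batch accounted for 16.3% of component 2 with genes scaled to unit variance, 24.5% with genes of a mean of at least 3 and 26.2% without both libraries that stand apart (adjusted p = 0.0124, 0.0191 and 0.0084). For component 3 it was 2.72% with unit variance, 4.06% with genes of a mean of at least 3 and 0.309% without those libraries. The adjusted permutation p values were 0.524, 0.0191 and 0.837 in that order. Components were computed anew in each setting, so the same number need not name the same component. The low or high genes called fell to 0 with a limit of 100 normalized counts, in stretch 1 alone and without both libraries that stand apart (3, 0 and 2 at an unadjusted p under 0.05). ENSRNOG00000025059 then had too few low or high rats to qualify. The cause of these shifts was not tested. Depth limits genes of low level, whose SE was largest.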

Other observations

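The 4 males of batch 3 in stretch 2 that were listed at 0 for ENSRNOG00000025731 (rats 2, 12, 14 and 21) were 4 of the 5 rats in which ENSRNOG00000007219 was above 15 normalized counts. They had 2838, 2744, 2326 and 988 normalized counts of ENSRNOG00000007219 in that order, and the fifth rat, female 15, had 513 and was at 110 for ENSRNOG00000025731. The 3 rats of batch 3 outside the first and second stretches had 2598 to 6923 normalized counts of ENSRNOG00000007219. These rats had 0, 0 and 52 normalized counts of ENSRNOG00000025731. Both genes were reached by the rule for named genes, but the overlap was noticed after their values were seen and was not tested.

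After batch, stretch and sex were removed, the first component of the scaled residuals held 31% of the variance in the 158 genes, 24.1% in the 1156 stretch genes and 15.9% in the 14716 genes with a mean log2 level of at least 3. These sets differ in size and level, and the difference between the shares was not tested. In the batch genes, rat 11 of batch 3 carried 19.9% of that component.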
